A study of Mus musculus with 12 samples.

Results

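The genes described here encode the proteins of the cytosolic ribosome. They were chosen by symbol alone, as mouse genes named Rpl (large subunit) or Rps (small subunit) plus a number, together with Rplp0, Rplp1, Rplp2 and Rpsa. Pseudogenes and the S6 kinases were left out. The rule found 67 genes of 17097 measured, 43 of the large subunit and 24 of the small subunit, on 128 of 45141 probe sets. Each gene was read from its brightest probe set, judged by the mean of the 12 arrays. Rpl5 and Rps3 were measured only on probe sets that are also listed with another gene, and are therefore not among the 67.

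A ribosome joins a small subunit, which reads the messenger RNA, to a large subunit, which makes the peptide bond. Each subunit holds ribosomal RNA and a fixed set of proteins, so cells need those proteins in matched amounts. The mRNAs of these proteins are among the most abundant and most stable of a cell, and begin with a run of pyrimidines, the 5' TOP motif, through which mTOR signalling sets their translation. Their genes are used as reference genes in expression studies, and their mRNAs are common in both brain and liver.

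The study asked how mouse tissue profiles change after death and how fixed tissue compares with frozen tissue. Liver and brain came from male BALB/c mice of 10 weeks. Each tissue was taken just after death (0 h), from bodies left 3 h at room temperature, or from bodies kept 18 h at 4 °C, so time and temperature changed together. Formalin-fixed paraffin-embedded (FFPE) tissue spent 24 h in 10% formalin before embedding, and was kept as a block for 7 d and cut at 10 µm. Fresh-frozen (FF) tissue went into RNAlater before freezing. FFPE RNA was amplified with a whole-transcript kit for fixed material, and FF RNA with a 3' in vitro transcription kit, so preservation and kit cannot be told apart. The 12 conditions were FFPE liver, FF liver, FFPE brain and FF brain at 0 h, 3 h and 18 h, with 1 array each. No condition has a second array, so the spread behind the p-values is what FFPE and FF arrays of a tissue and time do not share. No label gives the number of animals, so how far it holds spread between animals is unknown.

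Values are log2 intensities of an Affymetrix mouse array, so a difference of 1 is a doubling of signal. A gene was called where limma gave a two-sided p under 0.05 after Benjamini-Hochberg adjustment over all 13074 genes tested. Of the 67 genes 66 were tested. Rpl3l, a paralogue of Rpl3 known from heart and skeletal muscle, had a mean level of 4.28 and was at or above the array median on 0 of the 12 arrays. The tissue labels were checked against marker lists. The median of 7 hepatocyte markers was 12.35 to 12.70 on liver arrays. It was 4.97 to 5.01 on FFPE brain arrays and 4.78 to 7.74 on FF brain arrays. The median of 6 neuron markers was 3.99 to 4.44 on liver arrays, against 9.26 to 9.41 on FFPE brain arrays and 11.14 to 11.18 on FF brain arrays. The median of 5 Kupffer cell markers was 4.65 to 6.82 in FFPE liver and 7.14 to 8.27 in FF liver. The 4 erythroid markers had medians of 9.35 to 10.62 on liver arrays and 6.86 to 8.36 on brain arrays. In bulk tissue, fewer cells of a type and less RNA per cell cannot be told apart.

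Promoters of genes that carry the results are shown because ribosomal protein genes are known for shared promoter features. Each line holds 30 bases before and 20 bases after a RefSeq start of the gene (mouse build GRCm38.p6), written on the gene's own strand. Capitals mark the ETS-type core CCGGAAG or the pyrimidine core CTTTCC, on either strand. Rps27l, Rps10 and Rps7 hold at least 1 of these cores in the stretch, and Rplp0, Rpl9, Rpl12 and Rps18 hold none. Rps27l has another RefSeq start, whose stretch (chr9:66946383-66946432) holds neither core.
Rps27l (chr9:66946056-66946105, plus strand): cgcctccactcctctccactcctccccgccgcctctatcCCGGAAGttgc
Rps10 (chr17:27635225-27635274, minus strand): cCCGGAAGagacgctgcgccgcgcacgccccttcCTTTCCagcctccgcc
Rps7 (chr12:28635934-28635983, minus strand): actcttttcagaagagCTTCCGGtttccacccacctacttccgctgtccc
Rplp0 (chr5:115559437-115559486, plus strand): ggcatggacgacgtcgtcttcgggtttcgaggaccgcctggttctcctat
Rpl9 (chr5:65391412-65391461, minus strand): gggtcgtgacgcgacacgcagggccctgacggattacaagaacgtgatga
Rpl12 (chr2:32961682-32961731, plus strand): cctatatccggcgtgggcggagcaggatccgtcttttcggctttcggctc
Rps18 (chr17:33955646-33955695, minus strand): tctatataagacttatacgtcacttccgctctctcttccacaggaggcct

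RefSeq promoter windows of 250 bases before to 50 bases after the start were found for 53 of the 67 genes, 64 windows in all. CCGGAAG or its reverse complement lay in 25 of the 64 windows (39.1%), against 8.86% of all 32851 mouse windows. CTTTCC or its reverse complement lay in 31 windows (48.4%), against 26.6% of all windows. The palindromic box A motif lay in 6 windows (9.38%), against 0.466% of all windows. The YY1 core AAGATGGC also lay in 6 windows (9.38%), against 2.75% of all windows. Some genes have more than 1 window, and these shares count windows. The matching windows came from 24 genes for CCGGAAG, 27 for CTTTCC, 5 for box A and 4 for the YY1 core. A window can hold several of these motifs and their matches can overlap. A match describes letters, and no binding was measured.

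Ribosomal protein genes were among the brightest on every array. Of the 67 genes, 62 had a mean level at or above the 97th percentile of all genes. The highest were Rps29, a zinc-binding protein of the small subunit, at 12.34, Rpl23a, which lies by the peptide exit tunnel, at 11.59, and Rps2, which lies by the mRNA entry, at 11.55. For 24 of the 67 genes (35.8%) the brightest probe set carried the maker's suffix _s or _x, for probes that can match other transcripts. The share was 7.9% over all genes. Rps29 and Rpl23a were among the 24, so part of such signal may come from other transcripts, which was not tested. Rps29 read 12.19, 12.22 and 12.21 in FFPE liver, 12.26, 12.18 and 12.33 in FF liver, 12.21, 12.16 and 12.20 in FFPE brain and 12.70 in each FF brain array (0, 3 and 18 h). On this probe set FF brain was highest, and FFPE brain read near both liver series. A second Rps29 probe set, at a mean of 11.22, read 9.91, 9.89 and 9.95 in FFPE brain, against 12.25, 12.32 and 12.32 in FF brain. Its FFPE minus FF difference in brain was -2.38, against -0.51 on the brightest, so the size of the Rps29 difference depends on the probe set.

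The other 5 genes were lower. Rps27l, a paralogue of Rps27 that p53 activates in human and mouse cells, lay at the 95.73rd percentile because of low brain levels described below. Rpl39l, a paralogue of Rpl39 known from male germ cells in the mouse, had a mean of 4.83. Rpl3l had the lowest mean, 4.28. Rpl14 and Rps15a had means of 4.66 and 4.53. For Rpl14 this is the only probe set listed with it alone, and 4 probe sets listed with both Rpl14 and Rpl14-ps1 had means of 10.69 to 11.04. Of 2 probe sets listed with the pseudogene Rps15a-ps6, 1 had a mean of 10.66 and the other a mean of 4.69. The low readings of Rpl14 and Rps15a are therefore those of 1 probe set each.

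**Figure D1:**
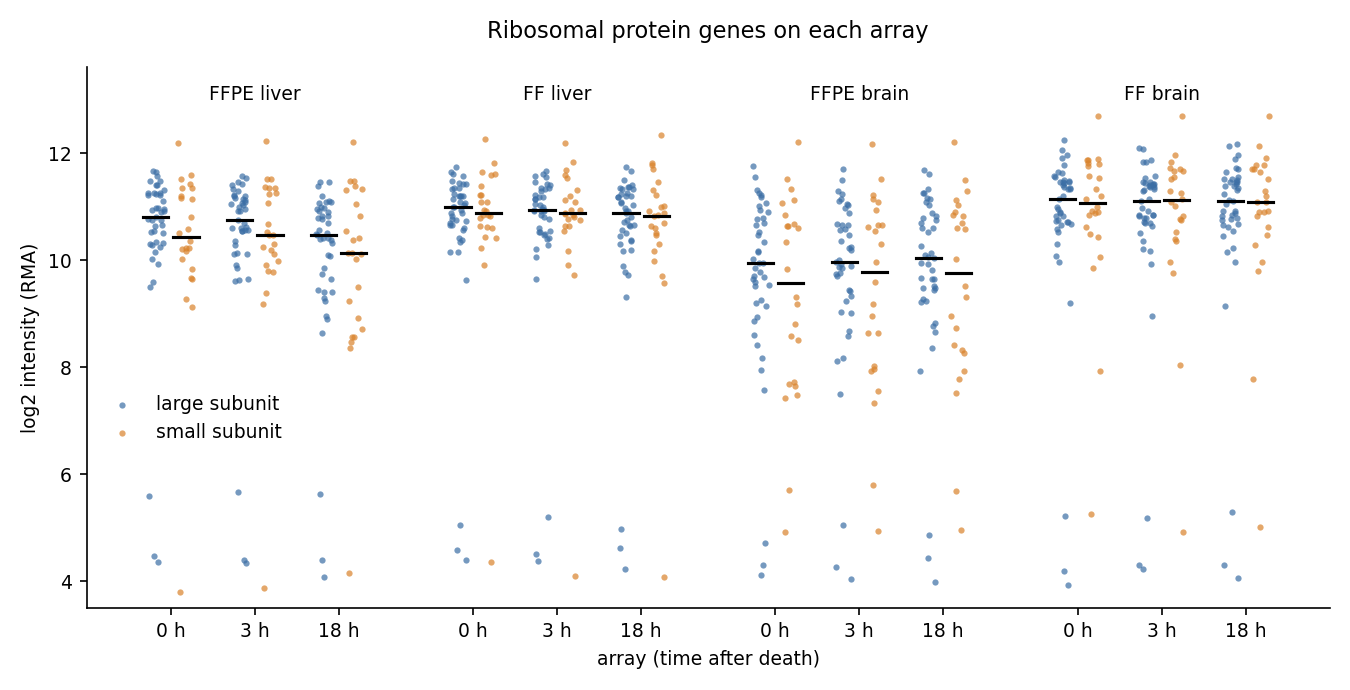
Log2 intensity of the 67 genes on the 12 arrays, with 1 point per gene, large subunit in blue and small subunit in orange, and black bars at each subunit's median. Medians lie near 11 on FF brain arrays and lower on FFPE brain arrays, where the small-subunit genes spread most; FFPE liver medians are lowest at 18 h.

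The median level over the 67 genes was 10.75, 10.62 and 10.41 in FFPE liver at 0, 3 and 18 h, and 10.94, 10.91 and 10.84 in FF liver. It was 9.86, 9.96 and 10.02 in FFPE brain, and 11.14, 11.11 and 11.09 in FF brain. FFPE brain was thus the lowest series and FF brain the highest. The rank of this median among all genes varied less, between the 98.39th percentile (FFPE brain at 0 h) and the 99.29th (FF brain at 0 h). The arrays themselves differed in scale, with medians over all probe sets of 4.80 to 4.88 in FFPE and 4.65 to 4.68 in FF. These array medians served for the filter and for centring. Medians over the genes tested went the other way, at 5.68 to 5.76 in FFPE and 5.95 to 6.26 in FF.

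The subunits had like medians in frozen tissue. In FF brain the large-subunit genes had a median of 11.13 and the small-subunit genes 11.08, and in FF liver 10.94 and 10.82. In FFPE brain the small-subunit genes were spread more widely, with an interquartile range of 2.80 against 1.49 for the large subunit. There 10 of 24 small-subunit and 8 of 43 large-subunit genes had a mean under 9, against 2 and 3 in FF brain. The difference in spread between subunits was not tested.

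Liver was compared with brain within each preservation, from 3 arrays against 3. In FFPE tissue 46 of 66 genes were higher in liver and 5 were lower, while 34.5% of all genes tested were called higher and 29% lower. In FF tissue 7 were higher in liver and 25 lower, while 36.5% of all genes were called higher and 37.5% lower. The 7 became 2 without the FF brain array of 18 h, 3 without the FF brain array of 3 h or the FF liver array of 18 h, and 4 with the 6 FF arrays alone. The median difference was 0.62 in FFPE and -0.19 in FF, against 0.04 over all genes in each. In FFPE 30 of 42 large-subunit and 16 of 24 small-subunit genes were higher in liver. In FF 15 of 42 large-subunit and 10 of 24 small-subunit genes were lower in liver. After quantile normalization of the 12 arrays the FFPE split was 34 higher and 12 lower, and the FFPE median was 0.29. With the 6 FFPE arrays alone the 5 lower genes became 2.

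The paralogue Rps27l had the largest tissue difference. It read 10.16, 10.25 and 9.49 in FFPE liver, against 5.71, 5.79 and 5.69 in FFPE brain. It read 10.84, 10.86 and 10.60 in FF liver, against 7.92, 8.03 and 7.78 in FF brain. Every liver value lay above every brain value. The difference was 4.24 ± 0.13 in FFPE (SE, adjusted p = 3.72e-12) and 2.86 ± 0.13 in FF (adjusted p = 1.43e-10). Its 3 probe sets gave 4.12 to 4.80 in FFPE and 2.75 to 2.92 in FF.

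Genes called in both preservations fell into 3 sets, and 0 genes were lower in liver in FFPE and higher in FF (1.48% of all genes tested). Rpl10, needed late in large-subunit maturation, Rpl22, required for T cell development in the mouse, Rpl7a, Rpl39l, Rplp0, Rps18 and Rps27l, 7 in all (10.6% of the 66, against 24.7% of all genes tested), were higher in liver in both. Of these, Rpl39l lay below the array median on every FF array, at 4.19 to 4.61, and entered the test through FFPE arrays only. It reached the median on all FFPE liver arrays, at 5.59 to 5.66, and in FFPE brain only at 3 h, at 5.05. Rpl39l could not have passed the filter without liver arrays, so its calls as higher in liver were favoured in advance. Rpl3, which lies by the peptidyl transferase centre, Rpl9, Rpl21, Rps15a and Rps23, 5 in all (7.58%, against 24.2% of all genes), were lower in liver in both. Of these, Rps15a was at or above the array median on the 6 brain arrays only, and read 3.79 to 4.36 in liver. It entered the test only through the tissue where it was high, so its calls were favoured in advance. Dimmer probe sets of Rpl22 (mean 5.72) and Rpl9 (mean 5.19) differed the other way in FF, at -0.40 and 0.51. A further 10 (15.2%, against 2.01% of all genes) were higher in liver in FFPE and lower in liver in FF: Rpl13, Rpl13a, Rpl17, Rpl26, Rpl29, Rplp1, Rplp2, Rps10, Rps20 and Rps4x. The difference between FFPE and FF in the tissue effect was itself called for all 10, and for 9 of them after quantile normalization. After quantile normalization 4 of the 10 were still called in both directions, Rpl13, Rpl13a, Rps10 and Rps20, and Rpl17 no longer lay above 0 in FFPE. Centring kept 8 of the 10 and lost Rps10 and Rps20. The other Rpl13 probe set, at a mean of 6.91, was higher in liver in FF as well, by 1.75. Another Rps10 probe set, at a mean of 9.68, read 9.76, 9.82 and 9.88 in FF liver at 0, 3 and 18 h. It read 9.79, 9.73 and 9.73 in FF brain, so on it liver was not lower at 3 h or 18 h. Rpl9, Rpl26, Rplp1, Rplp2 and Rps10 did not have 1 sign at every time in FFPE, nor Rplp0 in FF. The FFPE and FF comparisons share no array, but they do share the fitted spread and changes with time.

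Rps18, of the small-subunit head, had the next largest difference in FFPE. It read 10.22, 10.47 and 10.55 in FFPE liver, against 7.42, 7.97 and 8.32 in FFPE brain. It read 11.21, 11.13 and 11.21 in FF liver, against 10.61, 10.53 and 10.62 in FF brain. Liver was above brain at every time, by 2.51 ± 0.16 in FFPE (adjusted p = 8.49e-09) and by 0.60 ± 0.16 in FF (adjusted p = 0.00395). Without the FF brain array of 18 h the FF difference was 0.41 with an adjusted p of 0.0657. Its probe set carries the maker's suffix for probes that can match other transcripts.

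Rpl3 ran the other way. It read 10.75, 10.56 and 10.08 in FFPE liver, against 11.25, 11.15 and 11.15 in FFPE brain. It read 10.82, 10.77 and 10.44 in FF liver, against 11.57, 11.45 and 11.72 in FF brain. No liver value reached a brain value of the same preservation, and the differences were -0.72 ± 0.12 in FFPE (adjusted p = 0.000116) and -0.90 ± 0.12 in FF (adjusted p = 1.16e-05). Rps21, of the small subunit, was lower in liver by a like size in FF, at -0.83 ± 0.12 (adjusted p = 3.00e-05), and was not called in FFPE.

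**Figure D2:**
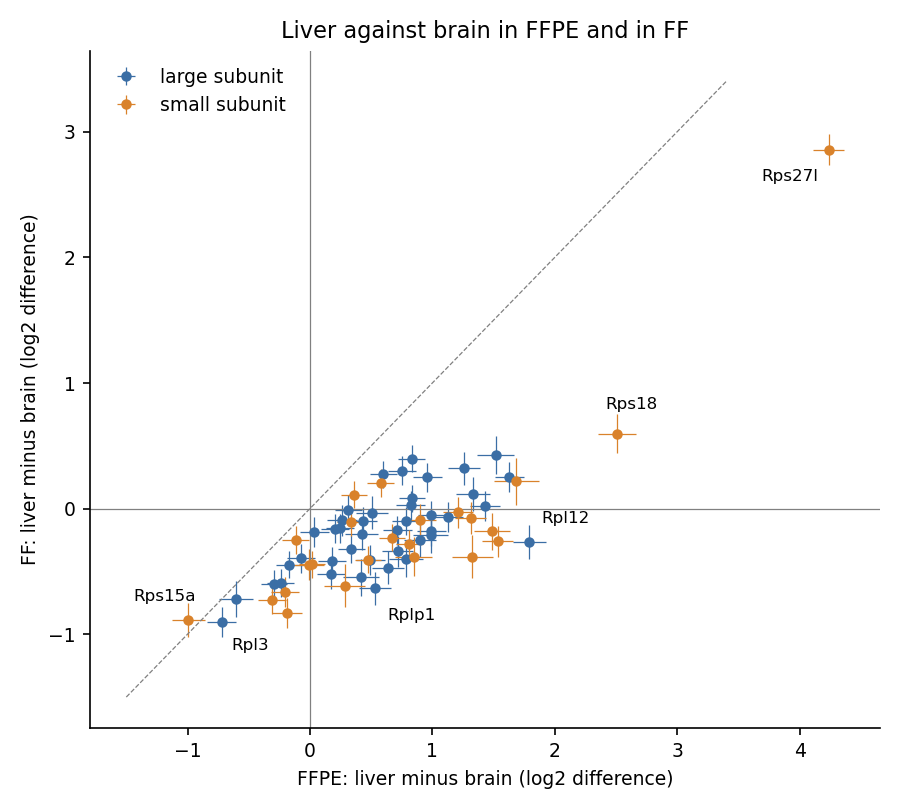
Liver minus brain of 66 genes as log2 differences, FFPE along x and FF along y, with bars of 1 SE and a dashed line of equal difference. All but 1 of the points lie right of the dashed line; Rps27l stands alone at 4.24 and 2.86, and Rps15a and Rpl3 lie below 0 on both axes.

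FFPE was then compared with FF within each tissue. The median over all genes was itself lower in FFPE, by -0.17 in liver and -0.42 in brain, and the values below are to be read against those shifts. In liver 33 of 66 genes were lower in FFPE and 8 higher, while 43.5% of all genes were called lower and 27.8% higher. In brain 56 were lower and 2 higher, while 53.4% of all genes were called lower and 28.4% higher. Rpl14 was at or above the array median on 6 arrays, all of them FF, at 4.97 to 5.29. It read 3.99 to 4.47 on FFPE arrays, so any call of Rpl14 as lower in FFPE was favoured in advance. The median of the ribosomal protein genes was -0.25 in liver and -1.11 in brain. After quantile normalization the brain median was -0.68. Centring each array on its median gave 44 lower and 4 higher in liver, with a median of -0.41. Markers of brain cells were also lower in FFPE brain. The neuron medians are given above, and the median of 3 oligodendrocyte markers was 5.67 to 6.01 in FFPE brain, against 7.83 to 8.47 in FF brain. Their part in the difference was not tested.

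In FFPE brain 35 of 42 large-subunit and 21 of 24 small-subunit genes were lower, on the brightest probe set of each. Between probe sets of 1 gene the brain difference ran from -4.40 to 1.28 for Rpl37 and from -1.53 to 1.62 for Rpl24. For Rpl7 and Rps12 every probe set was lower, at -1.79 to -1.40 and -2.37 to -2.01. A second Rpl41 probe set (mean 11.36) read 12.01, 11.92 and 11.15 in FFPE liver, against 10.81, 10.72 and 10.20 in FF liver. The brightest, at 11.39, was lower in FFPE liver at every time. Rps26, which touches the mRNA at the exit side of the small subunit, read 7.72, 7.32 and 7.92 in FFPE brain, against 10.90, 10.74 and 10.90 in FF brain. It read 9.65, 9.80 and 8.57 in FFPE liver, against 11.09, 11.09 and 11.01 in FF liver. All FFPE values were below all FF values, and the differences were -3.19 ± 0.19 in brain (adjusted p = 5.82e-09) and -1.72 ± 0.19 in liver (adjusted p = 3.72e-06). Rps7 followed at -3.08 in brain and -1.28 in liver, and Rpl12, at the base of the large-subunit stalk, at -2.88 in brain.

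A few genes were brighter in FFPE. Rpl39l was higher by 1.06 ± 0.11 in liver (adjusted p = 2.85e-06) and by 0.61 ± 0.11 in brain (adjusted p = 0.000217), at levels between 4.19 and 5.66. It was at or above the array median on 4 arrays, all of them FFPE. It thus entered the test only through the preservation where it was high, and these calls were favoured in advance. Rpsa, the small-subunit protein also described as a laminin receptor, read 11.16, 11.34 and 11.38 in FFPE liver, against 10.41, 10.63 and 10.88 in FF liver. All 3 FFPE values exceeded the FF values, by 0.65 ± 0.11 on average (adjusted p = 0.000188). In brain Rpsa was higher by 0.28 (adjusted p = 0.0327). That call ended after centring (0.08, adjusted p = 0.509), and without any 1 of the 6 brain arrays (0.25 to 0.33). Rpl30, Rpl11, Rpl21, Rps25 and Rpl27 were also higher in FFPE liver, by 0.32 to 0.63. After centring Rpl21, Rps25 and Rpl27 were no longer called (0.25, 0.20 and 0.16, adjusted p = 0.0546, 0.133 and 0.231).

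The difference between FFPE and FF was itself compared between tissues. It was less negative, or more positive, in liver than in brain for 65 of 66 genes, and 49 of them were called in that direction and 0 in the other, while 36.4% of all genes were called in that direction and 18.4% in the other. The median was 0.84, with 0.73 for the large subunit and 0.90 for the small subunit, against 0.18 over all genes. After quantile normalization 38 were called, and the medians were 0.51, 0.43 for the large subunit and 0.59 for the small subunit, against -0.004 over all genes. The largest were Rpl12 at 2.06 ± 0.19 (adjusted p = 2.12e-06), Rps18 at 1.91 ± 0.22 (adjusted p = 1.60e-05) and Rps7 at 1.79 ± 0.18 (adjusted p = 3.78e-06). Rps15a, whose liver values all lay below the array medians, was the exception in sign. Across the 66 genes the FFPE minus FF difference in liver followed that in brain (Pearson r = 0.883, against 0.709 across all genes), a description across genes that are not independent replicates.

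Time after death was tested as the change that FFPE and FF arrays of a tissue shared. At 3 h no ribosomal protein gene was called by limma in liver or in brain, while 0.245% of all genes were called in liver and 0.0765% in brain; 1 and 0 of the 66 had an unadjusted p under 0.05. At 18 h in brain 0 were called, 0.0306% of all genes were called, and 1 of the 66 had an unadjusted p under 0.05. The largest changes at 18 h in brain were Rps18 at 0.46 ± 0.19 and Rps19 at 0.29 ± 0.21 (adjusted p = 0.995 each). The largest at 3 h in liver was Rplp0 at -0.39 ± 0.16 (adjusted p = 0.471).

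At 18 h in liver 18 of the 66 genes fell and 0 rose, 12 of 42 of the large subunit and 6 of 24 of the small subunit. Over all genes tested 10.9% were called lower and 3.61% higher. The median change was -0.23 over the 66 genes and -0.02 over all genes. It was -0.13 after quantile normalization and -0.12 without the FFPE liver array of 18 h. The count rests on single arrays, and was 3 without the FFPE liver array of 0 h, 5 without the FFPE liver array of 18 h and 10 without the FF liver array of 0 h. It was 6 with the liver arrays alone and 10 (9 lower and 1 higher) after quantile normalization. Against 3 h instead of 0 h, 8 genes were lower and 0 higher, while 7.58% of all genes were called lower and 2.76% higher. That count was 0 without the FFPE liver array of 3 h or of 18 h, and 19 without the FF liver array of 18 h.

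The stalk proteins, which recruit elongation factors to the large subunit, were among those that fell. Rplp0 read 9.92, 9.61 and 8.64 in FFPE liver and 10.74, 10.28 and 9.78 in FF liver at 0, 3 and 18 h. It was lowest at 18 h and intermediate at 3 h in both, and its change at 18 h was -1.12 ± 0.16 (adjusted p = 0.000746). Rplp2 read 11.57, 11.16 and 10.48 in FFPE liver and 11.19, 11.03 and 10.66 in FF liver. Its change was -0.81 ± 0.16 (adjusted p = 0.00507), with an adjusted p of 0.0766 without the FFPE liver array of 0 h. Rplp1 changed by -0.80 in the FFPE pair and -0.31 in the FF pair of arrays, and was called.

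Rpl9, another protein of the large subunit, read 11.21, 10.92 and 9.74 in FFPE liver and 11.47, 11.34 and 10.75 in FF liver. Both series were lowest at 18 h, and the change was -1.10 ± 0.17 (adjusted p = 0.00148). Its other probe set, at a mean of 5.19, changed by 0.23, and the mean of both gave -0.43 (adjusted p = 0.0291). Rpl8, which lies by the peptidyl transferase centre, changed by -0.85 ± 0.18 (adjusted p = 0.00678). Rpl32 changed by -0.67 ± 0.16 (adjusted p = 0.0147). Rpl8 and Rpl32 were not called without the FFPE liver array of 0 h or of 18 h (adjusted p between 0.0629 and 0.146), and Rpl32 was not called with the liver arrays alone (adjusted p = 0.0528).

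Among small-subunit genes Rps10, which is ubiquitinated when ribosomes stall in mammalian cells, read 10.02, 9.90 and 8.56 in FFPE liver and 10.94, 10.84 and 10.30 in FF liver. The 18 h value was the lowest of each series, and the change was -1.05 ± 0.19 (adjusted p = 0.00309). A second Rps10 probe set, whose suffix marks probes that can match other transcripts, read 9.75, 9.76 and 9.52 in FFPE liver and 9.76, 9.82 and 9.88 in FF liver. The probe sets therefore disagreed, and their mean over the gene was not called (-0.32, adjusted p = 0.122). Rps10 also missed the threshold narrowly without the FFPE liver array of 0 h (-0.84).

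Rps9, which lies by the decoding site, read 10.20, 9.99 and 9.23 in FFPE liver and 10.23, 9.90 and 9.58 in FF liver. It was lowest at 18 h in both, by -0.81 ± 0.15 (adjusted p = 0.00379). Rps14, Rps19 and Rps13 changed by -0.84, -0.82 and -0.69 (adjusted p = 0.0168, 0.0198 and 0.0227), and RPS14 and RPS19 are known in human blood disease from loss of 1 copy. None of these last was called without the FFPE liver array of 0 h or of 18 h, or with the liver arrays alone (adjusted p between 0.0554 and 0.211). After quantile normalization Rps19 and Rps13 were not called (adjusted p = 0.0531 and 0.0698), and Rps13 was not called without the FF liver array of 0 h (adjusted p = 0.0973). Rplp0, Rpl9 and Rps9 were the 3 genes still called without the FFPE liver array of 0 h.

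Other genes differed less, or were brighter at 18 h. The brightest Rps29 probe set read between 12.18 and 12.33 on all liver arrays. Rps6, the target of the S6 kinases, read 11.43, 11.51 and 11.47 in FFPE liver and 11.81, 11.83 and 11.82 in FF liver, a change at 18 h of 0.03 ± 0.13 (adjusted p = 0.937). Rpsa had the largest positive change, 0.35 ± 0.14 (adjusted p = 0.121), and was higher at 18 h than at 0 h in both series. It was called after quantile normalization (adjusted p = 0.0478). Rps26 differed between the series, at -1.08 in the FFPE pair and -0.08 in the FF pair, and was not called (adjusted p = 0.118). The 4 probe sets listed with both Rpl14 and Rpl14-ps1 read 0.26 to 0.37 higher at 18 h than at 0 h in FFPE liver and 0.31 to 0.48 higher in FF liver.

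**Figure D3:**
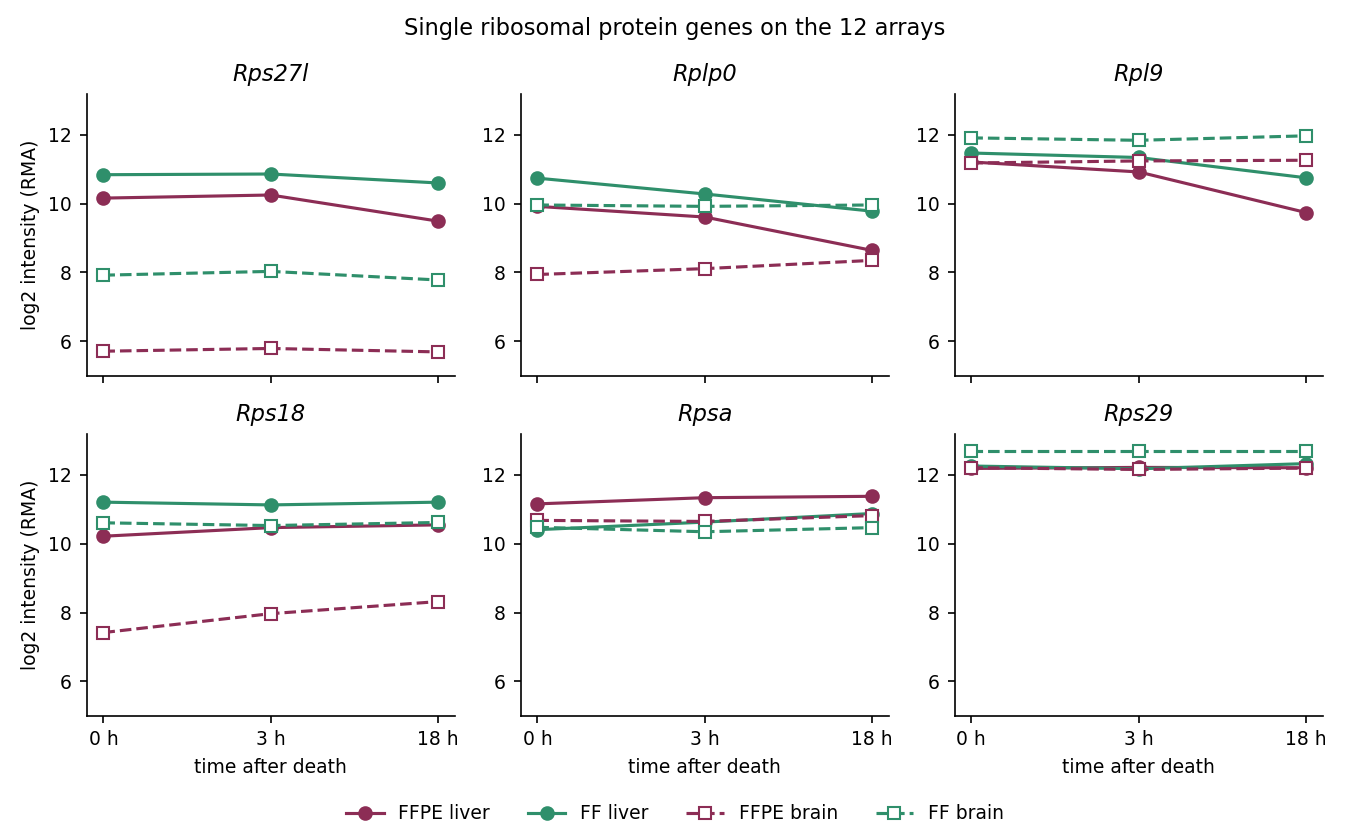
Log2 intensity of 6 genes on the 12 arrays by time after death (evenly spaced, not to scale), FFPE in purple and FF in green, liver as filled circles and brain as open squares. Rps27l is high in liver and low in brain, Rplp0 and Rpl9 fall in liver at 18 h, and Rps29 and Rpsa do not fall.

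The fall at 18 h was seen in the FFPE pair of arrays more than in the FF pair. The median change was -0.38 in the FFPE pair, with 53 of 66 genes lower, and -0.12 in the FF pair, with 44 lower. A fall of at least 1.5-fold was found for 23 of the 66 genes in the FFPE pair, while 13.1% of all genes tested fell as much. In the FF pair it was found for 4 of the 66, a smaller share than the 9.47% over all genes tested. The difference between preservations in the 18 h change was tested in limma by giving FFPE liver its own time terms, which left the spread to the brain arrays. None of the 66 genes was called (0, against 0% of all genes), and 10 had an unadjusted p under 0.05. The median was -0.30 over the 66 genes and -0.07 over all genes. The lowest adjusted p was that of Rps14, at -0.92 ± 0.25 (adjusted p = 0.126). Across the 66 genes the changes of the FFPE and FF pairs went together (Pearson r = 0.731, against 0.473 across all genes), as a description with no test.

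**Figure D4:**
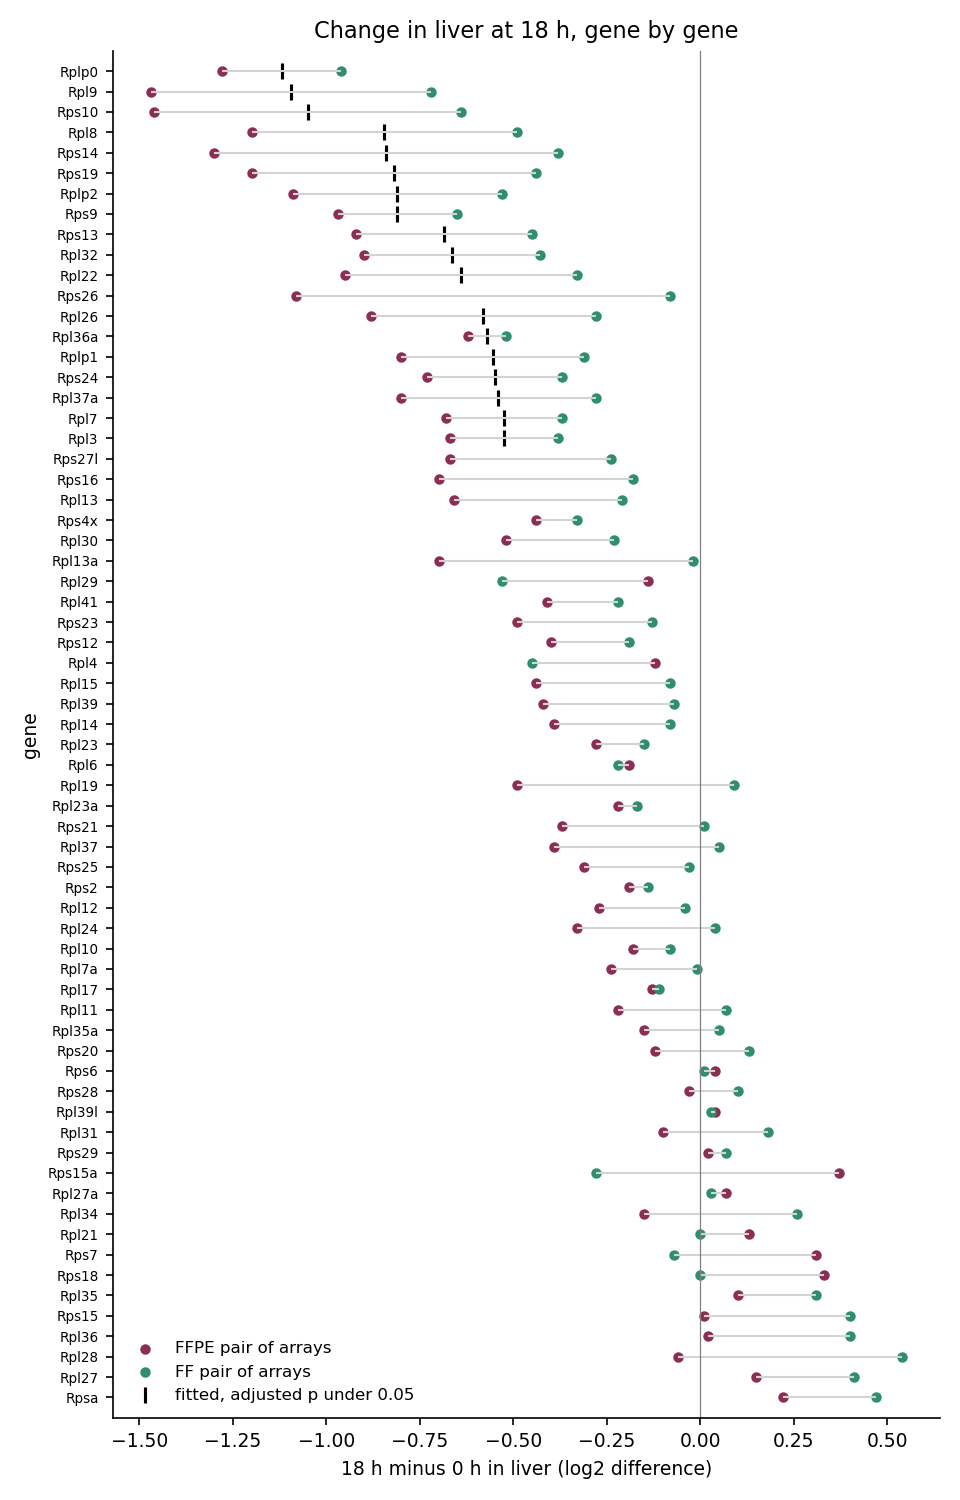
Change in liver from 0 h to 18 h of 66 genes (rows, ordered by the fitted change) as log2 differences, with the FFPE pair of arrays in purple, the FF pair in green and black ticks at the fitted change of the 18 genes called. Rplp0, Rpl9 and Rps10 lie lowest, FFPE points lie left of FF points for most genes, and Rpsa and Rpl27 lie to the right of 0 in both pairs.

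The change at 18 h differed between liver and brain for 5 genes, all lower in liver, while 3.96% of all genes were called in that direction and 0.52% in the other. They were Rplp0 at -1.33 ± 0.22 (adjusted p = 0.00833), Rpl9 at -1.17 ± 0.25 (adjusted p = 0.0214), Rps10 (adjusted p = 0.0369), Rplp2 (adjusted p = 0.0352) and Rps9 (adjusted p = 0.0425). The count was 0 without the FFPE brain array of 0 h or of 18 h, 1 to 3 without most other arrays and 19 without the FF liver array of 18 h. Of the 3 h change, 0 genes differed between tissues by limma, 0.0153% of all genes did, and 0 of the 66 had an unadjusted p under 0.05.

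Control probe sets of Gapdh and Actb were read with RNA integrity in mind. Preservation and kit changed together, so these values cannot rank RNA integrity between FFPE and FF. The signal of the 3' control probe set of Gapdh minus that of the 5' one was 1.04, 1.63 and 1.77 in FFPE liver at 0, 3 and 18 h, and 0.03, 0.82 and 1.14 in FF liver. It was 1.22, 1.25 and 1.22 in FFPE brain, and -0.02, 0.00 and 0.05 in FF brain. For Actb the gap was 1.09, 2.00 and 1.90 in FF liver, while in FFPE liver it was -0.12, -0.01 and -0.18. The part of RNA integrity in the changes of ribosomal protein genes was not tested.

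Other genes of the translation machinery were read from lists by their counts. At 18 h in liver 9 of 34 initiation factors were lower and 0 higher, with a median of -0.31. Eif6, which keeps the subunits apart, changed by -1.77 ± 0.15 (adjusted p = 4.92e-05), and Eif3f, a subunit of eIF3, by -1.26 ± 0.18 (adjusted p = 0.000672). Of 8 elongation factors Eef1b2 and Eef1g, which reload eEF1A, were lower, by -0.84 and -0.70 (adjusted p = 0.00295 and 0.00454). Eef2k, the kinase that inhibits eEF2, was higher by 0.80 (adjusted p = 0.00968). Of 26 ribosome biogenesis genes 7 were lower and 1 higher, the lowest being Nop16 at -1.28 ± 0.14 (adjusted p = 0.000195).

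Outside the cytosolic ribosome, 41 of 72 mitochondrial ribosomal protein genes were lower at 18 h in liver and 0 higher, with a median of -0.61. Of 35 proteasome subunit genes 19 were lower and 0 higher, with a median of -0.60. The cytosolic genes had 18 of 66 lower, or 27.3%, against 56.9% of the mitochondrial list and 54.3% of the proteasome list. These shares are descriptions and were not tested against each other. Among the near relatives left out by the naming rule, Rpl22l1, a paralogue of Rpl22, was the 1 of 4 that was lower (-1.03 ± 0.22, adjusted p = 0.00894), and Rpl22 itself also fell.

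**Figure D5:**
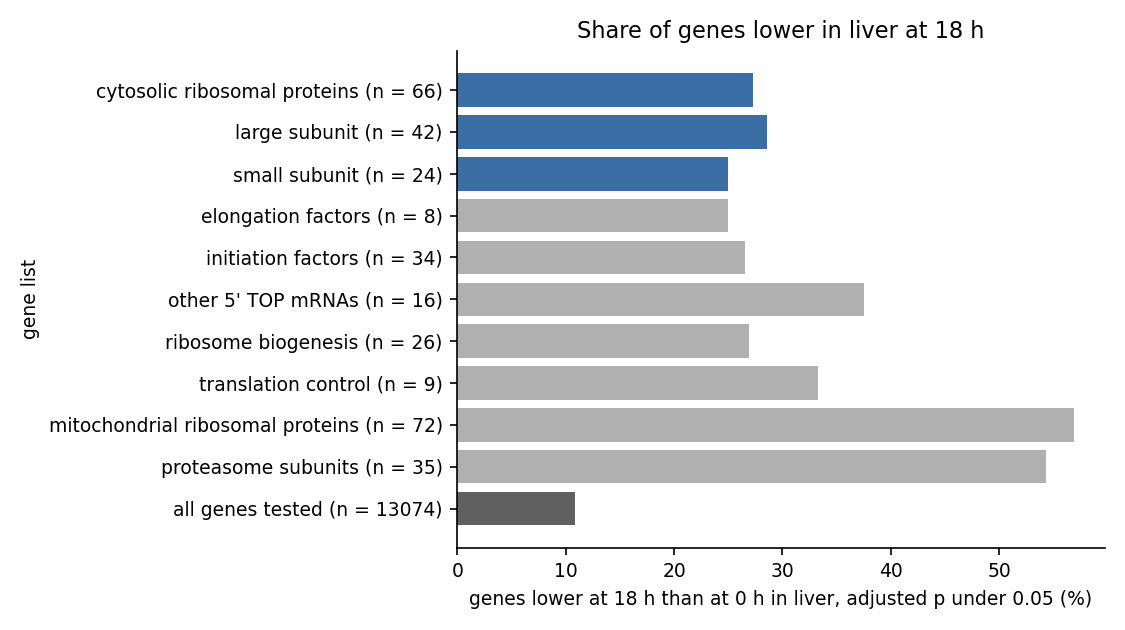
Percent of tested genes lower in liver at 18 h than at 0 h (adjusted p under 0.05) in each gene list, with the number tested in brackets, cytosolic ribosomal proteins in blue, other lists in light grey and all genes in dark grey. The blue bars lie at 25% to 28.6%, against 10.9% for all genes and over 50% for mitochondrial ribosomal proteins and proteasome subunits.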

How the data were processed

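Gene expression was measured on 12 Affymetrix mouse arrays, 1 per condition. The authors deposited log2 intensities per probe set, to which RMA had been applied in the Affymetrix Expression Console software according to the notes credited to the submitters. Those notes leave it unsaid whether all arrays were run together. Arrays have no read depth, so precision is limited by their number.

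Of 45141 probe sets, 104 were controls, 28898 named 1 gene, 551 named several genes and 15588 named no gene. Each of 17097 genes was represented by its probe set with the highest mean. Genes at or above the array median on at least 3 arrays were tested (13074). A limma 3.58.1 model (R 4.3.3) with 8 coefficients held 4 series means plus, for each tissue, a 3 h and an 18 h term, leaving 4 residual degrees of freedom. All tests were two-sided. P-values were adjusted by Benjamini-Hochberg across the genes tested and called under 0.05. The script was tested on simulated data.

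The genes and lists were chosen with earlier results of these data known. Named genes are the up to 10 largest increases and decreases called with 1 sign in every pair of arrays, or up to 4 genes where none was called. The highest and lowest genes, those with a paralogue in the set, those with disagreeing probe sets, the stalk proteins, Rpsa and Rps6 were also named. Rps26 at 18 h, the probe sets shared with pseudogenes and the genes called in both tissue comparisons were named after their values were seen. Promoters came from RefSeq, and 0 columns of other samples were present. The test of FFPE against FF in the 18 h change of liver (10 coefficients) was added after seeing the data. Alternatives covered scaling, the filter, the probe set, the spread and left-out arrays.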

Additional observations from a re-analysis of the deposited data

Results flagged for a closer look

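The FFPE minus FF difference of 49 ribosomal protein genes was called different between liver and brain by the interaction term in limma. For all 49 the difference was less negative, or more positive, in liver. Over all genes tested 36.4% were called in that direction and 18.4% in the other. The largest interactions (log2, liver minus brain) were Rpl12 at 2.06, Rps18 at 1.91, Rps7 at 1.79, Rps19 at 1.71, Rps13 at 1.67, Rps26 at 1.47, Rpl7 at 1.41, Rps16 at 1.39, Rps27l at 1.38 and Rpl36 at 1.38.

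The change at 18 h was called different between liver and brain for 5 genes, all lower in liver. Over all genes tested 3.96% were called in that direction and 0.52% in the other. Their interactions were Rplp0 at -1.33, Rpl9 at -1.17, Rps10 at -1.10, Rplp2 at -0.93 and Rps9 at -0.85.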

How the results depend on the processing

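The fit matched FFPE and FF arrays of a tissue by time, and the fits to 1 preservation matched liver and brain by time. No paired analysis was possible beyond that, because the labels carry no replicate numbers. The total numbers of genes called for tissue and for preservation stayed within 1.5 times under every alternative run, and the counts at 3 h and in brain stayed at 0. The medians and the counts in 1 direction moved more in places, as given above with those results. The test of FFPE against FF in the 18 h change was added after seeing the data. It gave 0 calls among the 66 genes as first run, after quantile normalization, after centring and with a shared 3 h term. With the shared 3 h term, limma called 94 of all 13074 genes, and the lowest adjusted p among the 66 was 0.0609. Of the 18 genes called at 18 h in liver, quantile normalization gave 10 calls and the liver arrays alone gave 6. For 18 h against 3 h in liver (8), quantile normalization gave 4, centring 13, an intensity trend 17 and the liver arrays alone 0. For the difference between tissues at 18 h (5), quantile normalization gave 2, no filter 3, probe sets without the _s or _x suffix 8 and an intensity trend 9.

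Leaving out 1 array at a time gave 24 to 37 calls for liver against brain in FF and 42 to 54 in FFPE, and 36 to 39 for FFPE against FF in liver, 54 to 59 in brain and 40 to 56 for their difference. At 18 h in liver it gave 3 to 24 against 0 h and 0 to 19 against 3 h, and 0 to 19 for the difference between tissues. The other 4 counts stayed at 0. With unsuffixed probe sets, Rps24 turned to 0.34 for liver against brain in FF (adjusted p = 0.0125) and to 0.02 for 18 h against 3 h in liver (adjusted p = 0.960), where the unsuffixed probe sets had means of 4.72 and 4.39, near the array medians, and the 3 suffixed ones means of 10.72 to 11.20. Quantile normalization set the median of all genes at -0.12 in place of -0.42 for FFPE against FF in brain, and at 0.16 in place of 0.04 for liver against brain in FF. Causes of these changes were not tested.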

Other observations

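A probe set listed with both Rpl5, a large-subunit protein that binds MDM2 together with Rpl11, and Dipk1a read 11.36, 11.12 and 10.77 in FFPE liver at 0, 3 and 18 h, and 11.52, 11.40 and 11.17 in FF liver. It read 11.20, 11.14 and 11.16 in FFPE brain, and 11.60, 11.56 and 11.60 in FF brain. Both liver series were lowest at 18 h on this probe set. Dimmer probe sets of the same pair went otherwise, with 7.29, 7.56 and 7.33 in FF liver on one (mean 7.22) and 6.67, 6.36 and 6.61 in FFPE liver on the other (mean 6.26). Signal of the genes sharing these probe sets cannot be told apart.

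Of 72 mitochondrial ribosomal protein genes, 63 were called higher in liver than in brain and 2 lower in FFPE (87.5% and 2.78%), with a median of 1.15. In FF 37 were called higher and 9 lower (51.4% and 12.5%), with a median of 0.35. Of 35 proteasome subunits 30 were higher and 1 lower in FFPE (85.7% and 2.86%), with a median of 1.10. In FF 9 were higher and 6 lower (25.7% and 17.1%), with a median of 0.09. Over all genes 34.5% were higher and 29% lower in FFPE, and 36.5% higher and 37.5% lower in FF.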
